A study of Mus musculus with 4 samples.

Results

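Effector cytokines and chemokines of CD8 T cells were represented here by 6 genes chosen by symbol, Ifng, Tnf, Ccl3, Ccl4, Ccl5 and Xcl1, out of 17039 genes in the expression table. All 6 were found there, and all 6 were among the 12887 genes with enough reads to test. RNA was sequenced from splenic T cells, called CD8+ in the series title, of C57BL/6 mice kept under specific pathogen-free conditions. Cells were taken by magnetic sorting a month after an intramuscular injection. The AAV-IL-27 mice received a recombinant adeno-associated virus that expresses interleukin-27, and the AAV-ctrl mice received a control recombinant adeno-associated virus. There were 2 mice and 2 libraries per group, named replicates 1 and 3, so both groups carried a virus and the difference between them is what the virus expressed. The promoter of the vector, the age of the mice and the markers used in the sort are not given in the sources used here. The virus was placed in muscle, and which cells expressed interleukin-27 was not measured here.

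Activated and memory CD8 T cells act on other cells partly through secreted proteins. Interferon-gamma (Ifng) signals through the JAK-STAT pathway and makes target cells present more antigen, and tumour necrosis factor (Tnf) acts through a pair of receptors to drive inflammation or cell death. The chemokines CCL3, CCL4 and CCL5 draw in monocytes, NK cells and other T cells, whereas XCL1 draws in the cross-presenting dendritic cells that carry XCR1. Transcripts of Ccl5 are stored by memory CD8 T cells at rest, and those of Ifng, Tnf, Ccl3, Ccl4 and Xcl1 are made mostly in a burst after the T cell receptor is triggered. Natural killer (NK) cells make most of the same factors. Interleukin-27 acts on T cells through the receptor chains Il27ra and Il6st, which activate JAK-STAT signalling.

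The gene starts of 4 of the 6 genes had an upstream sequence in a RefSeq table of the mouse build GRCm38.p6. The 250 bases before each start are shown because 2 of these genes, Ifng and Ccl3, were higher in AAV-IL-27 by a large factor and the other 2, Tnf and Xcl1, were not. The Ifng window lies at chr10:118440796-118441045 on the plus strand, and the windows of Ccl3 (chr11:83649379-83649628), Tnf (chr17:35202008-35202257) and Xcl1 (chr1:164935523-164935772) lie on the minus strand. Capitals mark matches to any of 6 motifs, and each sequence runs from 5′ to 3′ towards the gene.
Ifng: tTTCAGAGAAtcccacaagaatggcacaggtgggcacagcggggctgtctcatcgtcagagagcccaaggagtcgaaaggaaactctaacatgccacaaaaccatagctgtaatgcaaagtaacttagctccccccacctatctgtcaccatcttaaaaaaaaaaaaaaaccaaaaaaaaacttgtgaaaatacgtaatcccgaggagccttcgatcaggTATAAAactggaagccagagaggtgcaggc
Ccl3: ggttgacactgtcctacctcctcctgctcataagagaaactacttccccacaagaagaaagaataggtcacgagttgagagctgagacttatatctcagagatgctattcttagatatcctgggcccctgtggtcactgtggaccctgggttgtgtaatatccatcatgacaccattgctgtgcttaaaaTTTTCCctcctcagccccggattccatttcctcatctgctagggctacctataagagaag
Tnf: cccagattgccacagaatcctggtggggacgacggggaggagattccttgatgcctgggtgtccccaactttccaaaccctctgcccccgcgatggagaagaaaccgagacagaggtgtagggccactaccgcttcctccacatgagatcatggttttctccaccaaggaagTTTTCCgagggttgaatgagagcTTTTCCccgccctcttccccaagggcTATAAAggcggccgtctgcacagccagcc
Xcl1: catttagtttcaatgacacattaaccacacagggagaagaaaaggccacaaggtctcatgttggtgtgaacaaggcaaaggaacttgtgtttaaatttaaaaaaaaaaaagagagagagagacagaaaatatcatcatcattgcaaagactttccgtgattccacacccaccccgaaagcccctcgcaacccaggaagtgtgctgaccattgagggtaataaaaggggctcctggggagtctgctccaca

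All motifs were searched on both strands. The STAT motif TTCNNNGAA was found in the Ifng window, starting 249 bases before the gene start, and in 7.02% of 32851 windows of the same length in the table. The NFAT motif GGAAAA was found once in the Ccl3 window and at 2 places in the Tnf window, and in 20.4% of all windows. The TATA box letters TATAAA stood 30 bases before the start of Ifng and 29 bases before that of Tnf, and 12.4% of all windows hold them. The AP-1 motif TGANTCA (6.75% of windows), the T-box motif AGGTGTGA (1.12%) and the NF-kappa-B consensus (3.9%) had no match in the 4 windows, and the Xcl1 window had no match to any of the 6. No match of one motif overlapped a match of another in these windows. A match or its absence describes the letters of a short window and says nothing of which factor was bound.

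Total counts ranged from 15742476 to 16182426 per library. The T cell label was checked against fixed markers: Cd8b1, a chain of the CD8 co-receptor, stood between 546 and 626 FPKM in the 4 libraries, while Cd4 stood between 8.21 and 10.1 FPKM. FPKM are reads scaled by transcript length and library size, so they can be compared between genes; the unit was inferred from the values, since the table does not name it. B cell markers were present as well, with Cd79a, a chain of the B cell receptor, at 251 and 370 FPKM in AAV-IL-27, against 630 and 530 FPKM in AAV-ctrl. Cd8b1, Cd4 and Cd79a were chosen as defining markers after their values were seen. In such bulk samples, fewer cells of a type and less RNA per cell cannot be told apart.

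Of the 6 effector genes, 5 rose in AAV-IL-27 and 1, Xcl1, did not pass the test. The test was edgeR's quasi-likelihood test over all genes, called at an adjusted p under 0.05. By the same test 21.3% of all genes tested were higher, 17.7% lower, and 39% changed in either direction. The count for the 6 genes therefore stands in a comparison where a large share of the transcriptome moved. The median log2 fold change of the 6 was 2.19, beside -0.005 over all genes tested. The 6 genes divided by size: Ifng, Ccl3, Ccl4 and Ccl5 were 4.41 to 5.90 times higher, Tnf 1.26 times, and Xcl1 1.09 times without passing. No effector gene was lower by edgeR, DESeq2 or limma-voom, with 0 also at an unadjusted p under 0.05 by each. DESeq2 called 14.7% of the genes it tested higher and 9.06% lower (23.8% in all), and limma-voom 20.9% higher and 17.2% lower (38.1% in all).

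**Figure D1:**
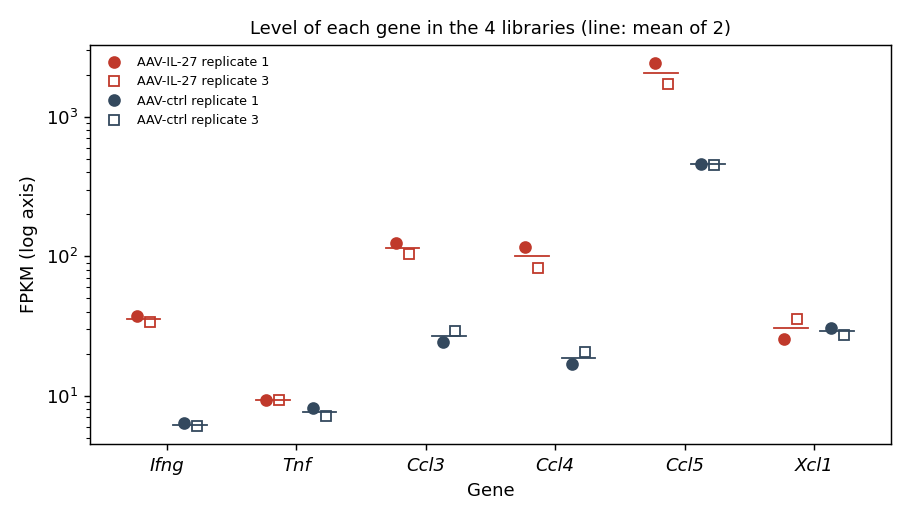
FPKM of the 6 genes in each library on a log axis, with AAV-IL-27 left of AAV-ctrl. Points are single libraries and lines are means of 2. Ifng, Ccl3, Ccl4 and Ccl5 lie apart between the groups by a wide gap, Tnf by a narrow one (9.32 against 8.12 and 7.14 FPKM), and the Xcl1 points of the groups overlap.

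Ifng (NCBI Gene 15978) encodes interferon-gamma, the main activator of macrophages and of antigen presentation. It spans 118441046 to 118445894 on chromosome 10 and has 4 exons in GENCODE. Its level was 37.4 and 33.5 FPKM in AAV-IL-27 replicates 1 and 3, against 6.36 and 6.06 FPKM in AAV-ctrl. Both AAV-IL-27 libraries lay well above both controls, and replicates of each group lay close together. These levels rest on 719 and 648 counts in AAV-IL-27 and on 120 and 114 counts in AAV-ctrl. The log2 fold change was 2.56 ± 0.099 (SE), with an edgeR adjusted p of 2.24e-07, higher in 2 of 2 libraries. Its call held under each of 16 alternative settings, with log2 fold changes between 2.34 and 2.64. Among genes tested, 129 others had a higher log2 fold change or the same, which puts Ifng at the 99.0 percentile.

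Tnf (NCBI Gene 21926) encodes tumour necrosis factor, a cytokine made as a membrane protein and shed from the cell surface. It spans 35199367 to 35202007 on chromosome 17. Its level was 9.32 FPKM in both libraries of AAV-IL-27, against 8.12 and 7.14 FPKM in AAV-ctrl. The groups did not overlap, as was so for 71.5% of all genes tested, and the gap to the nearer control was about as wide as the gap between the controls. Counts were 247 and 248 in AAV-IL-27, against 211 and 185 in AAV-ctrl. The log2 fold change was 0.34 ± 0.11 (edgeR adjusted p = 0.0403). Tnf passed under 6 of 16 alternatives, with adjusted p from 0.0384 to 0.335. The call was lost when AAV-IL-27 replicate 1 was left out (adjusted p = 0.0753), and likewise AAV-IL-27 replicate 3 (0.0743), AAV-ctrl replicate 1 (0.0871) or AAV-ctrl replicate 3 (0.273), and by DESeq2 (0.271).

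Ccl3 and Ccl4 encode the chemokines MIP-1-alpha and MIP-1-beta, which activated T cells release together. Ccl3 (NCBI Gene 20302) stood at 125 and 103 FPKM in AAV-IL-27, against 24.2 and 29.2 FPKM in AAV-ctrl. Ccl4 (NCBI Gene 20303) stood at 117 and 82.6 FPKM in AAV-IL-27, against 16.85 and 20.5 FPKM in AAV-ctrl. For both genes the lower AAV-IL-27 library, replicate 3, was far above the higher control, also replicate 3. The log2 fold change was 2.14 ± 0.13 for Ccl3 (edgeR adjusted p = 3.72e-05) and 2.40 ± 0.24 for Ccl4 (edgeR adjusted p = 0.00345). Both passed under each of the 15 alternatives that gave the gene a row of its own, with log2 fold changes of 2.00 to 2.29 and of 2.13 to 2.62.

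The split of reads between Ccl3 and Ccl4 is uncertain. Their expected counts were not whole numbers in 3 of the 4 libraries, while the sum of the pair was whole in each (within 0.02), and the other members had whole counts. In AAV-IL-27 replicates 1 and 3 the pair had 1540.23 and 1229.77, and 1279.86 and 876.14 counts, which sum to 2770 and 2156. In AAV-ctrl replicates 1 and 3 the sums were 475 and 575. In RefSeq the span of Ccl4 (83648624 to 83664683 on chromosome 11) overlaps that of Ccl3 (83647843 to 83649378) by 755 bases, with Ccl3 on the minus and Ccl4 on the plus strand. GENCODE gives Ccl4 a later start, 83662584, and no overlap, and the longest identical stretch of the GENCODE transcripts of both genes is 9 bases. Summed into a single row, a choice made after seeing the data, the pair rose by a log2 fold change of 2.25 (edgeR adjusted p = 0.00251), so the rise does not depend on the split. Ccl3 took 55.6% and 59.4% of the sum in AAV-IL-27, and 61.7% and 61.3% in AAV-ctrl.

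Ccl5 (NCBI Gene 20304) encodes RANTES, a chemokine that binds CCR1 and CCR3, among others, and it spans 83525778 to 83530518 on chromosome 11. Its level was 2441 and 1714 FPKM in AAV-IL-27, against 462 and 449 FPKM in AAV-ctrl. Both AAV-IL-27 libraries were far above both controls, but they differed from each other by more than the controls did. Ccl5 averaged 2078 ± 514 FPKM in AAV-IL-27 and 455.7 ± 9.3 FPKM in AAV-ctrl (SD, n = 2 each). It was the 13th and 27th most abundant gene by FPKM in AAV-IL-27 replicates 1 and 3, against the 131st and 133rd in AAV-ctrl. The log2 fold change was 2.24 ± 0.23 (edgeR adjusted p = 0.0123). Leaving out AAV-ctrl replicate 1 (adjusted p = 0.065) or AAV-ctrl replicate 3 (0.071) ended the call, at log2 fold changes of 2.26 and 2.22, and it passed under the other 14 alternatives.

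Xcl1 (NCBI Gene 16963) encodes lymphotactin, a chemokine of T and NK cells, and it spans 164931644 to 164935522 on chromosome 1. Its level was 25.4 and 35.6 FPKM in AAV-IL-27, against 30.5 and 27.5 FPKM in AAV-ctrl. One AAV-IL-27 library lay below both controls and the other above both. The log2 fold change was 0.13 ± 0.16 (edgeR adjusted p = 0.585). It passed under no alternative, with log2 fold changes from -0.14 when AAV-IL-27 replicate 3 was left out to 0.35 when replicate 1 was, so the direction turned on a single library.

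**Figure D2:**
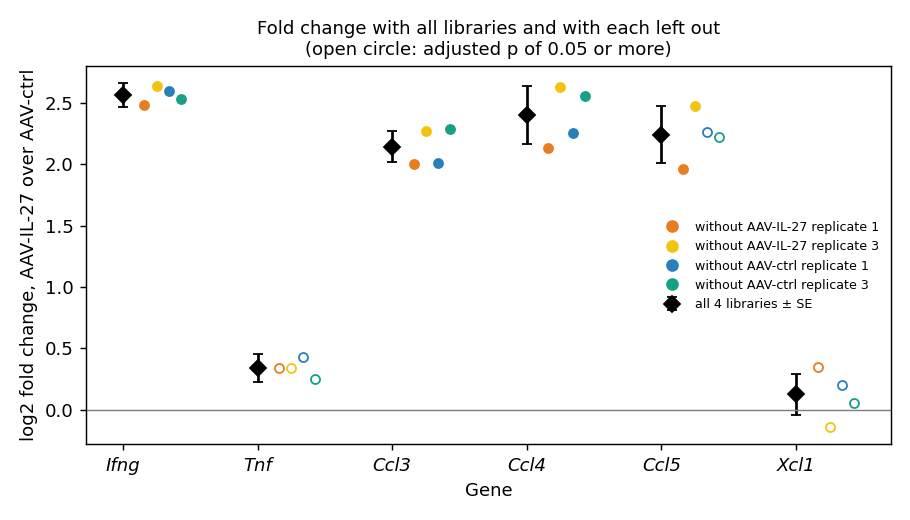
log2 fold change of AAV-IL-27 over AAV-ctrl for each gene with all 4 libraries (diamond, bar of 1 SE) and with each library left out (circles, open where the adjusted p was 0.05 or more). The circles of Ifng, Ccl3, Ccl4 and Ccl5 stay between 1.96 and 2.64, those of Tnf are all open, and those of Xcl1 lie on both sides of 0.

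Replicates of AAV-IL-27 differed by amounts that varied between the effector genes, and cell type markers differed as well. On the log2 CPM scale (reads scaled to library size), replicate 1 exceeded replicate 3 by 0.51 for Ccl5, 0.50 for Ccl4, 0.27 for Ccl3 and 0.16 for Ifng, and by 0.001 for Tnf. Xcl1 ran the other way, at -0.48. Among dendritic cell markers the same difference was 0.55 for Xcr1 and 0.27 for Zbtb46, but -0.55 for Ly6d. It was 0.205 for the T cell marker Thy1 and -0.56 for the B cell marker Cd79a. Whether the differences of the effector genes are linked to those of the markers was not tested. The AAV-ctrl pair differed by -0.29 for Ccl4, -0.27 for Ccl3, 0.18 for Tnf, 0.14 for Xcl1, 0.07 for Ifng and 0.04 for Ccl5. The exact permutation test for a single gene cannot give a two-sided p under 0.333 with 2 against 2.

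The order of the genes by FPKM also differed between the groups. In AAV-IL-27 the order of mean levels was Ccl5, Ccl3 (113.9 FPKM), Ccl4 (99.9), Ifng (35.45), Xcl1 (30.5) and Tnf (9.32). Ccl3 overlapped Ccl4 in this order, and Ifng overlapped Xcl1. In AAV-ctrl the order was Ccl5, Xcl1 (29.0 FPKM), Ccl3 (26.7), Ccl4 (18.7), Tnf (7.63) and Ifng (6.21), and there Xcl1 and Ccl3 overlapped. Ifng was the lowest of the 6 in AAV-ctrl and above Tnf in AAV-IL-27. In both groups Ccl5 stood far above the other members, and the 6 together had 1480 and 1070 CPM in AAV-IL-27, against 299 and 295 CPM in AAV-ctrl.

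Marker levels of several cell types moved with the groups. Counts called in these lists stand beside 21.3% higher and 17.7% lower among all genes tested. The summed FPKM of 14 T cell markers was 3740 and 3320 in AAV-IL-27, against 3270 and 3320 in AAV-ctrl, with 8 of 14 higher and 2 lower (median log2 fold change 0.22). With library size alone or upper-quartile factors 5 were higher. Without AAV-ctrl replicate 1 or replicate 3, 3 or 4 of the 14 were higher, and Thy1, which was among the lower ones, no longer passed (adjusted p = 0.107 and 0.0903). Relative to that sum, Ifng stood at 1.0% and 1.01% in AAV-IL-27, against 0.194% and 0.183% in AAV-ctrl. Ccl5 stood at 65.3% and 51.7% in AAV-IL-27, against 14.1% and 13.5% in AAV-ctrl. Tnf stood at 0.249% and 0.281% in AAV-IL-27, against 0.248% and 0.215% in AAV-ctrl, so the nearest values of the groups almost met. Scaling the libraries to the T cell markers moved the median of all genes to -0.131. Ifng, Ccl3, Ccl4 and Ccl5 then passed, at log2 fold changes of 2.43, 2.01, 2.26 and 2.10, and Tnf did not (edgeR adjusted p = 0.335). In this fit the edgeR adjusted p of Ccl5 was 8.45e-70, against 0.0123 in the main fit of the same libraries. Calls under this scaling, here and for other lists, are therefore not comparable in strictness with those of the main fit.

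NK cells share these transcripts with CD8 T cells, and 9 of 16 NK markers went the other way from most of these transcripts. Ncr1, the activating receptor NKp46, had 1.62 and 2.25 FPKM in AAV-IL-27, against 12.1 and 11.6 FPKM in AAV-ctrl (log2 fold change -2.56 ± 0.17, edgeR adjusted p = 5.08e-06). Klrb1c, the marker NK1.1, had 1.26 and 1.30 FPKM in AAV-IL-27, against 9.87 and 9.79 FPKM in AAV-ctrl. Among 16 NK markers 9 were called lower, 4 higher and 3 neither (median -1.11), and 2 were higher with libraries scaled to the T cell markers. The 4 that rose were Klrk1, Eomes, Gzma and Klrc1. The part of NK cells in the levels of the effector genes was not tested. The most abundant of the 16 were Gzma and Tyrobp, and the summed FPKM of the list was 354 and 318 in AAV-IL-27, against 341 and 320 in AAV-ctrl. No NK marker was at 0 in any library.

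Markers of other cells that can make CCL3, CCL4 or TNF moved too, and their part in the rises was not tested. The 16 neutrophil markers summed to 1050 and 1720 FPKM in AAV-IL-27, against 38.6 and 27.7 FPKM in AAV-ctrl, and 14 of 15 tested rose (median 5.77). Of these, 7 rose when AAV-ctrl replicate 1 was left out and 5 when replicate 3 was. Within AAV-IL-27 the neutrophil sum was higher in replicate 3, and Ccl3, Ccl4 and Ccl5 were higher in replicate 1. Whether these differences within the group are linked was not tested. The 10 basophil and mast cell markers summed to 110 and 112 FPKM in AAV-IL-27, against 16.7 and 16.5 FPKM in AAV-ctrl, with 8 of 9 tested higher. Mcpt8, a basophil protease, had 32.0 and 35.3 FPKM in AAV-IL-27, against 0.93 and 0.73 FPKM in AAV-ctrl.

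Macrophage and monocyte markers went both ways, and platelet markers gave small values. Of 16 macrophage and monocyte markers 6 fell and 2 rose, with C1qa, a complement component of tissue macrophages, at 5.83 and 5.81 FPKM in AAV-IL-27, against 19.1 and 12.2 FPKM in AAV-ctrl. The number that fell was 9 with T cell marker scaling, and 6 with library size alone or upper-quartile factors. Some of the 6 calls were lost without a filter on low counts. The number that rose was 4 by DESeq2 and without AAV-IL-27 replicate 3, and 1 without AAV-ctrl replicate 1 or replicate 3. The sum of these 16 was 1210 and 1080 FPKM in AAV-IL-27, against 718 and 625 FPKM in AAV-ctrl, most of it from Ly6c2, which T cells also express. Platelets carry CCL5, and their 10 markers summed to 3.72 and 3.02 FPKM in AAV-IL-27, against 4.51 and 3.45 FPKM in AAV-ctrl. Of the 2 platelet markers tested, 1 was called higher, and 0 with library size alone or upper-quartile factors. B cell markers summed to 997 and 1370 FPKM in AAV-IL-27, against 2090 and 1850 FPKM in AAV-ctrl, with 3 of 10 lower. That number was 6 by DESeq2, 8 by limma-voom, 10 with T cell marker scaling, 1 with either AAV-ctrl library left out, 8 without AAV-IL-27 replicate 1 and 10 without AAV-IL-27 replicate 3. Dendritic cell markers were mixed: of 11, Zbtb46 and Bst2 were higher, Cd209a and Ccr9 lower, and 7 were not called (median 0.51). DESeq2 called 5 of the 11 higher, limma-voom 6, and edgeR 6 with T cell marker scaling or without AAV-IL-27 replicate 3 and 5 without AAV-IL-27 replicate 1. Their sum was 408 and 420 FPKM in AAV-IL-27, against 465 and 457 FPKM in AAV-ctrl, and Ly6d alone held 126 and 185 FPKM of it in AAV-IL-27, against 256 and 227 FPKM in AAV-ctrl.

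**Figure D3:**
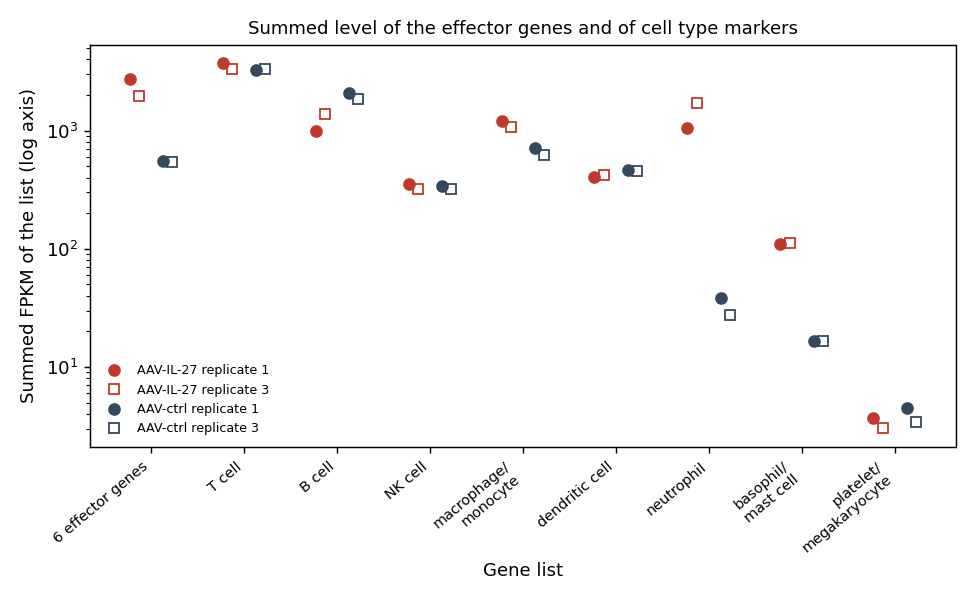
Summed FPKM of the 6 effector genes and of each marker list in each library, on a log axis, with AAV-IL-27 left of AAV-ctrl. The effector genes sum to 2760 and 1980 FPKM in AAV-IL-27 against 548 and 540 in AAV-ctrl, T cell markers lie close together, neutrophil and basophil markers are higher in AAV-IL-27 and B cell markers lower.

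Among 8 receptors for these factors, 1 was called higher and 2 lower, and 5 were not called (median 0.30). Of all genes tested 39% were called in either direction, so this count does not set the receptors apart. Tnfrsf1b, the TNF receptor typical of lymphocytes, had 26.6 and 26.4 FPKM in AAV-IL-27, against 17.6 and 19.2 FPKM in AAV-ctrl (edgeR adjusted p = 6.7e-05). Ifngr2, the signalling chain of the interferon-gamma receptor, fell to 17.6 and 22.3 FPKM in AAV-IL-27, against 37.4 and 33.4 FPKM in AAV-ctrl (log2 fold change -0.78 ± 0.12, edgeR adjusted p = 0.00247). Its ligand-binding partner Ifngr1 was at 87.4 and 82.5 FPKM in AAV-IL-27, against 87.3 and 89.5 FPKM in AAV-ctrl (adjusted p = 0.923).

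Of the chemokine receptors, Ccr3 passed, and Xcr1 and Ccr1 did not. Xcr1, the receptor of XCL1 and a marker of dendritic cells rather than T cells, had 21.5 and 14.6 FPKM in AAV-IL-27, against 9.58 and 10.5 FPKM in AAV-ctrl (edgeR adjusted p = 0.0714), and it passed by DESeq2 (0.00672). Ccr3, a receptor of eosinophils and basophils, fell to 0.65 and 1.34 FPKM in AAV-IL-27, against 4.14 and 2.71 FPKM in AAV-ctrl, though not without AAV-ctrl replicate 1 (adjusted p = 0.0511). Ccr1 (log2 fold change 0.38 ± 0.27) and Tnfrsf1a (0.21 ± 0.076) did not pass. The number of receptors called higher ranged from 1 to 4 over the alternatives, with 4 when AAV-IL-27 replicate 3 was left out and 3 when AAV-IL-27 replicate 1 was. The number called lower was 1 without AAV-ctrl replicate 1.

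Among 17 genes listed as inducers of Ifng transcription 11 were called higher, 2 lower and 4 neither (median 0.34). Of all genes tested, 21.3% were higher and 17.7% lower. With T cell marker scaling 8 of the 17 were higher and 2 lower. Whether these genes had a part in the rise of Ifng was not tested. The largest log2 fold changes of the list belonged to the chains of the interleukin-12 receptor, Il12rb1 (2.29) and Il12rb2 (2.15). Il12rb1 had 22.8 and 19.9 FPKM in AAV-IL-27, against 4.62 and 4.75 FPKM in AAV-ctrl. Il12rb2 had 13.9 and 12.7 FPKM in AAV-IL-27, against 2.70 and 3.55 FPKM in AAV-ctrl. Tbx21, which encodes T-bet and binds the Ifng locus, had 29.5 FPKM in both libraries of AAV-IL-27, against 12.1 and 11.6 FPKM in AAV-ctrl (1.36 ± 0.064, adjusted p = 6.29e-07).

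The remaining inducers moved by smaller steps. Irf1 rose by 1.14 and Batf, an AP-1 family factor, by 1.06 on the log2 scale, and Il2rb, a receptor chain for interleukins 2 and 15, by 0.57. Hlx, a partner of T-bet, rose by 0.90, a call lost on leaving out AAV-ctrl replicate 1 (adjusted p = 0.108) or AAV-ctrl replicate 3 (0.0608) and by DESeq2 (0.106). The factors Runx3 (0.34) and Eomes (0.32) and the kinase Jak2 (0.31) rose as well. Scaling to the T cell markers ended these 3 calls (adjusted p = 0.132, 0.179 and 0.219), as did leaving out AAV-ctrl replicate 1 for Jak2 (0.0821). Stat4, which carries the interleukin-12 signal, fell by 0.19 and Il18r1 by 0.28. The Stat4 call was lost by DESeq2 (adjusted p = 0.0779). It was also lost on leaving out AAV-IL-27 replicate 1 (log2 fold change -0.13), AAV-ctrl replicate 1 (-0.23) or AAV-ctrl replicate 3 (-0.16). The Il18r1 call was lost on leaving out AAV-IL-27 replicate 1 (-0.205) or AAV-ctrl replicate 1 (-0.18). Il18rap, Nfatc1, Nfatc2 and Tyk2 lay between -0.02 and 0.16 and did not pass.

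**Figure D4:**
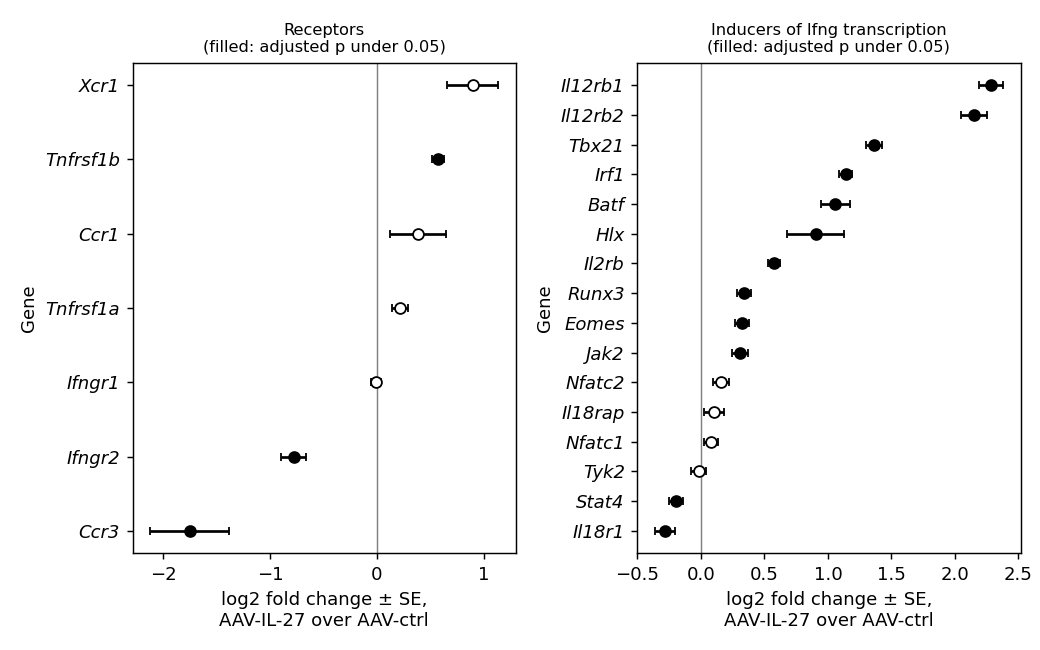
log2 fold change (bar of 1 SE) of AAV-IL-27 over AAV-ctrl for receptors of the effector proteins and for inducers of Ifng transcription named in the text. Filled points passed an adjusted p of 0.05. Il12rb1 and Il12rb2 lie furthest to the right among the inducers shown, while Xcr1 and Ccr3 mark the ends of the receptors shown.

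Genes that interferon-gamma induces were higher in AAV-IL-27, in a comparison where 21.3% of all genes tested were higher. Of 22 tested, 21 rose and 1, Ciita, did not pass (median 1.15, beside -0.005 over all genes), and the list overlaps with that of the inducers (Irf1 is in both). Iigp1, an interferon-inducible GTPase, had 146 and 152 FPKM in AAV-IL-27, against 6.50 and 5.96 FPKM in AAV-ctrl. Gbp2, a guanylate-binding protein whose reads may be split with close copies, had 173 and 174 FPKM in AAV-IL-27, against 33.8 and 35.7 FPKM in AAV-ctrl. Many of these genes are also known to be induced by other cytokines, interleukin-27 among them.

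Regulators of cytokine transcript decay and shedding showed small differences, and which of them passed depended on the scaling. Among 13 such genes 2 were called higher, 3 lower and 8 neither (median 0.007), beside 39% of all genes tested called in either direction. With library size alone or upper-quartile factors 2 were higher and 5 lower. With T cell marker scaling 4 were lower and 0 higher by edgeR (0 also at an unadjusted p under 0.05), and limma on log2(FPKM + 1) likewise called 4 lower and 0 higher (2 at an unadjusted p under 0.05). With an AAV-ctrl library left out, 1 (replicate 1) or 0 (replicate 3) were called higher by edgeR, with 2 at an unadjusted p under 0.05 in each case. Tia1, which holds back Tnf translation, fell by 0.29 (edgeR adjusted p = 0.00173) and Rhbdf2, a cofactor of TNF shedding, by 0.41 (adjusted p = 0.0019). Adam17, the protease that sheds TNF, rose by 0.21 (edgeR adjusted p = 0.0111). The Adam17 call was lost by DESeq2 (adjusted p = 0.0707) and by limma on log2(FPKM + 1) (0.0725) or log2(FPKM + 0.1) (0.0708). It was also lost with AAV-ctrl replicate 1 or replicate 3 left out, at log2 fold changes of 0.18 and 0.25. Zc3h12d, a regulator of transcript stability, rose by 0.30, though not without AAV-ctrl replicate 3 (adjusted p = 0.0844). Zfp36, tristetraprolin, which destabilizes Tnf transcripts, stood at 403 and 393 FPKM in AAV-IL-27, against 373 and 391 FPKM in AAV-ctrl and did not pass (adjusted p = 0.0941).

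Neighbours on the chromosome did not share the size of these changes. The chemokine cluster on chromosome 11 holds Ccl5, Ccl9, Ccl6, Ccl3 and Ccl4 in this order. Ccl9 had 5.91 and 5.25 FPKM in AAV-IL-27, against 4.34 and 3.98 FPKM in AAV-ctrl (log2 fold change 0.47 ± 0.11, edgeR adjusted p = 0.00948). Ccl6 had 20.4 and 22.2 FPKM in AAV-IL-27, against 17.4 and 15.8 FPKM in AAV-ctrl (0.41 ± 0.087, adjusted p = 0.00507). Both are chemokines typical of myeloid cells. Neither passed without AAV-ctrl replicate 3 (adjusted p = 0.101 for Ccl9 and 0.0681 for Ccl6), nor Ccl9 without AAV-ctrl replicate 1 (0.0527) or by DESeq2 (0.081).

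On chromosome 17, Tnf lies between Ltb and Lta, which encode the lymphotoxin chains, relatives of TNF. Both fell while Tnf did not: Lta, named after its values were seen, had 13.3 and 14.6 FPKM in AAV-IL-27, against 24.6 and 20.1 FPKM in AAV-ctrl (log2 fold change -0.63 ± 0.11, edgeR adjusted p = 0.00214). Ltb had 207 and 214 FPKM in AAV-IL-27, against 276 and 268 FPKM in AAV-ctrl (-0.32 ± 0.048, adjusted p = 0.000766). Among 13 other ligands of the TNF superfamily 5 were called higher, 4 lower and 4 neither, beside 21.3% higher and 17.7% lower of all genes tested. Tnfsf4, which encodes OX40 ligand, had 2.25 and 3.44 FPKM in AAV-IL-27, against 0.16 FPKM in each AAV-ctrl library (4.17 ± 0.41). Tnfsf13b, the B cell survival factor BAFF, rose by 2.81 ± 0.34 and Tnfsf10, the death ligand TRAIL, by 0.80 ± 0.073.

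Other secreted factors were mostly at lower levels. Among 8 other T cell cytokines 5 were called higher, 2 lower and 1 neither, beside 21.3% higher and 17.7% lower of all genes tested. Lif, leukaemia inhibitory factor, had 2.50 and 1.44 FPKM in AAV-IL-27, against 0.17 and 0.11 FPKM in AAV-ctrl (log2 fold change 3.86 ± 0.40, edgeR adjusted p = 0.000194). Il16, a chemoattractant for CD4 cells, fell to 85.9 and 83.8 FPKM in AAV-IL-27, against 114 FPKM in each AAV-ctrl library. Il2, the growth factor of T cells, stood at 0.33 and 0.20 FPKM in AAV-IL-27, against 0.14 and 0.21 FPKM in AAV-ctrl, too few reads to test. Of 9 other chemokines tested, 4 rose and 5 did not pass. Besides Ccl6 and Ccl9 these were Cxcl9 (15.2 and 13.9 FPKM in AAV-IL-27, against 6.15 and 7.26 FPKM in AAV-ctrl) and Cxcl10 (4.53 and 5.48 FPKM in AAV-IL-27, against 1.64 and 1.70 FPKM in AAV-ctrl), ligands of CXCR3 that interferon-gamma induces. Without AAV-ctrl replicate 3, 2 of the 9 rose.

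The genes whose profiles over the 4 libraries were most like those of the members were found by Euclidean distance of mean-centred log2 CPM. A small prior count was added first, which shrinks the differences of genes with few reads. For Ifng these were Tgm2, a transglutaminase (distance 0.073), Igtp, an interferon-inducible GTPase (0.091), and Uchl1 (0.14). Igtp had 358 and 347 FPKM in AAV-IL-27, against 62.3 and 59.2 FPKM in AAV-ctrl. Uchl1 had 1.10 and 1.09 FPKM in AAV-IL-27, against 0.11 FPKM in each AAV-ctrl library. Its log2 fold change was 3.26, against 2.56 for Ifng. For Ccl3 the closest genes were Dhrs9, Stk32c and Cacnb3, and for Ccl4 they were Pak6, Fgl2 and Rtkn. Dhrs9 had only 0.44 and 0.35 FPKM in AAV-IL-27, and its log2 fold change was 2.80, against 2.14 for Ccl3. Fgl2, fibrinogen-like protein 2, had 49.5 and 37.95 FPKM in AAV-IL-27, against 7.60 and 8.55 FPKM in AAV-ctrl.

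For Ccl5 the closest genes were Cnih2, Gpnmb and Glrx, of which Glrx, glutaredoxin, had 97.6 and 68.9 FPKM in AAV-IL-27, against 18.9 and 20.0 FPKM in AAV-ctrl. Glrx was chosen by its likeness to Ccl5 over these libraries, so the shared higher level in AAV-IL-27 replicate 1 is no separate finding. For Tnf they were Sap18b, Acp1 and Ndufa11, and for Xcl1 Psg23, Rims2 and C1ra, the last at 0.62 and 0.95 FPKM in AAV-IL-27, against 0.81 and 0.69 FPKM in AAV-ctrl. With 4 libraries many of the 12887 genes have near-equal profiles, and likeness here is only a description.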

How the data were processed

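For each gene and library the authors deposited an expected count, and a second set of columns taken as FPKM. The unit of that second set is missing per the file headers and was inferred from its ratio to the counts. The submitters' processing notes name RSEM 1.2.12, HISAT2 2.0.4, Bowtie2 2.2.5 and DESeq2 1.4.5 on the build GRCm38.p6, without roles. Use of strand in counting: not given in the sources used here. Expected counts were rounded, filtered with filterByExpr, scaled by TMM and fitted in edgeR 4.0.16 (R 4.3.3, quasi-likelihood, robust, two-sided) on the whole table, with Benjamini-Hochberg adjustment over 12887 genes. The SE is the size of the log2 fold change divided by the square root of F. DESeq2 1.42.0, limma 3.58.1, other scalings and filters, a replicate block and leaving out each library served as alternatives.

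The 4 libraries come from 4 mice, per the design text, and replicates of a group did differ beyond counting noise (chi-square over its degrees of freedom was 6.79 for AAV-IL-27, against 2.55 for AAV-ctrl). Nothing in the labels links the same replicate number across groups. The members and gene lists were chosen with earlier results of these data known. Named were the members, the receptors and inducers, genes among the 4 smallest p of each further list, and the 3 nearest profiles of each member, leaving out predicted genes. Klrk1, Eomes and Klrc1 as NK markers, Gzma, Tyrobp, Ly6d, Il2, Zfp36 and Ciita were named after their values were seen. Positions come from RefSeq on GRCm38.p6 unless GENCODE is named. Some genes counted in the lists are not reported here by name.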

Additional observations from a re-analysis of the deposited data

How the results depend on the processing

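The number of genes changed was 5023. It was 3185 by DESeq2 and ranged from 2635 to 4886 with a library left out (2635 without AAV-ctrl replicate 1, 2743 without AAV-ctrl replicate 3). Of the 6 effector genes 5 were higher. This number ranged from 3 to 4 with a library left out, where Tnf was lost each time and Ccl5 without either AAV-ctrl library. It was 4 with library size alone, upper-quartile factors, T cell marker scaling, DESeq2, and limma on log2(FPKM + 1) or log2(FPKM + 0.1), where Tnf was lost. The cause was not tested. The log2 fold change of Xcl1 ranged from -0.14 to 0.349 with a library left out, turning to -0.14 without AAV-IL-27 replicate 3. Over all alternatives, 81 log2 fold changes of members kept their direction and side of the threshold, 12 lost the call and 1 turned. With the replicate number as a replicate block, 4971 genes changed and 5 effector genes were higher. Deviations of same-numbered libraries did not correlate (-0.000711 over genes). Among the receptors and inducers the block ended the calls of Ccr3 (adjusted p = 0.0524) and Il18r1 (0.0628) and called Tnfrsf1a (0.0445).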
